A study of Drosophila ananassae and Drosophila erecta and Drosophila sechellia with 40 samples.

Results

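Drosophila virilis was compared with D. sechellia, D. simulans, D. erecta and D. ananassae by RNA-seq of adult antennae, and the log2 mean normalized count of each gene in D. virilis was set against the average log2 mean of the other 4 species. A gene was included if it was listed above 0 in these 5 species and above 50 in at least 1 of them. The filter kept 7666 of the 25214 rows listed for adults, and they held 7379 genes with distinct values. A gene was called D. virilis-specific if the D. virilis mean lay above or below those of all 4 others. Each species was a wild-type strain reared on cornmeal medium at 20°C in a 16:8 light:dark cycle. Each adult library came from a pool of males and females, labelled with 300 individuals. The 2 D. virilis libraries and the 8 libraries of the other species were of wild-type strains, and their labels name no allele, transgene or treatment. A single strain stands for each species, so a difference between species and one between strains cannot be told apart. The series holds 40 libraries, 2 for each of these species at each of 4 stages. D. melanogaster enters only as the authors' mean.

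Odours are sensed in the fly antenna by receptor neurons housed in sensilla, and the neurons of a given class express 1 or a few receptor genes. Odorant receptors (Ors) work with the co-receptor Orco, and ionotropic receptors (Irs) with co-receptors such as Ir25a and Ir76b. Support cells around the neurons secrete odorant-binding proteins into the fluid of the sensillum and express enzymes that break down odorants. The same organ holds the mechanosensory neurons of Johnston's organ. D. virilis belongs to the subgenus Drosophila, and the other 4 species to the melanogaster group of the subgenus Sophophora, so D. virilis is the most distant species of the comparison.

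The counts of both libraries of a species were recovered from the deposited mean, since a mean of whole reads divided by 2 size factors has a single solution for 98.5% to 99.7% of the values. The resolved genes held 9252373 to 18890258 reads per library. A part of the largest values was not resolved, the lowest of them at 10209.4 in D. virilis, and these carry the authors' mean alone. That left 7177 of the 7379 genes with a test. The median absolute log2 difference between the 2 D. virilis libraries was 0.17. The antennal markers were present in D. virilis, with Orco at 28702 normalized counts, against 43461 to 50964 in the other species, and of the 12 listed only Obp83b was at 0. One D. sechellia library stood apart, with eye and photoreceptor markers that summed to 40100 over the genes above 0 in all 5 species, against 600 in the other D. sechellia library, 423 and 644 in the D. virilis libraries and 267 to 1480 in the remaining 6. Summed muscle markers were 7850 and 7970 in D. virilis and ranged from 1970 to 20600 in the other 8 libraries.

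By limma on log2(normalized count + 1), with Benjamini-Hochberg adjustment over 7708 genes, 2506 genes were higher in D. virilis (34.9% of the 7177 tested) and 2483 were lower (34.6%) at an adjusted p under 0.05. The libraries were normalized jointly, which centres the log ratios, so a balance of higher and lower genes is in part set by the scaling. The median log2 difference was 0.002, with quartiles of -0.61 and 0.67, and 1286 genes were more than 2-fold higher and 1124 more than 2-fold lower. A stricter call asked for a difference from each of the 4 species in the same direction. It was met by 967 higher genes (13.5%) and 937 lower genes (13.1%), which are called higher or lower than in all 4 species in what follows. Of 61 such genes described here, 49 kept this call without any single 1 of the 10 libraries, and Ir64a, Obp56g, Jhe, Ugt86Dd, RpL27, Cyt-c-p, SdhB, Ace, unc, eater, PGRP-SD and the row of Act57B lost it without at least 1. These p-values measure the spread between 2 libraries of a species, which the authors describe as biological replicates, and not the spread between species.

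By the rule on means, 1867 genes were D. virilis-specific and higher (25.3% of 7379) and 1814 were D. virilis-specific and lower (24.6%). The distance to the nearest species was small for most of them, with a median of 0.5 on the log2 scale for the higher genes and -0.44 for the lower genes. It exceeded 1 for 494 higher and 409 lower genes, and it exceeded 4, a 16-fold difference, for 32 and 34. Both D. virilis libraries lay beyond all 8 other libraries for 1448 higher (20.2%) and 1315 lower genes (18.3%). The genes just inside the limit of 50 were CG14651 and CG9427, each with 50.6 in its highest species, and those just outside it were CG14949 with 49.9 and CG4210 with 49.5. A further 117 of 6275 rows above 50 in all 4 other species were listed at 0 in D. virilis. They are outside the rule, because a listed 0 may stand for a gene without reads or for an absent ortholog.

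**Figure D1:**
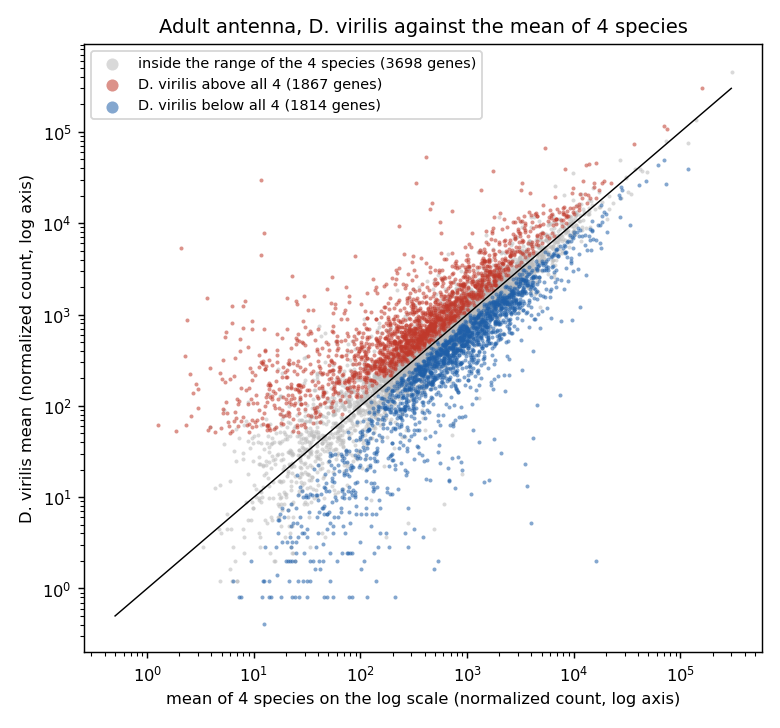
Mean normalized count of each gene in D. virilis (vertical log axis) against the average of the 4 other species on the log scale (horizontal log axis). Each of the 7379 points is a gene, the line marks equal values, and the 1867 genes above and 1814 genes below all 4 species lie on both sides of it at every level.

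When the same rule was applied to each species in turn, D. virilis had the largest share of genes outside the other 4, 49.9%, and D. ananassae followed with 48.4%. The shares were 37.3% in D. erecta, 33.3% in D. simulans and 31.1% in D. sechellia. For a distance over 1 on the log2 scale, the share was 12.2% in D. virilis, against 11.1% in D. ananassae, 7.0% in D. simulans, 6.1% in D. erecta and 3.7% in D. sechellia. D. virilis had 494 genes above and 409 below the others by more than 1, whereas D. ananassae had 312 above and 508 below. These 5 shares come from the same 10 libraries and are given as a description. Species by species, the median absolute log2 difference from D. virilis was 0.67 for D. sechellia, 0.68 for D. erecta, 0.80 for D. simulans and 0.84 for D. ananassae.

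**Figure D2:**
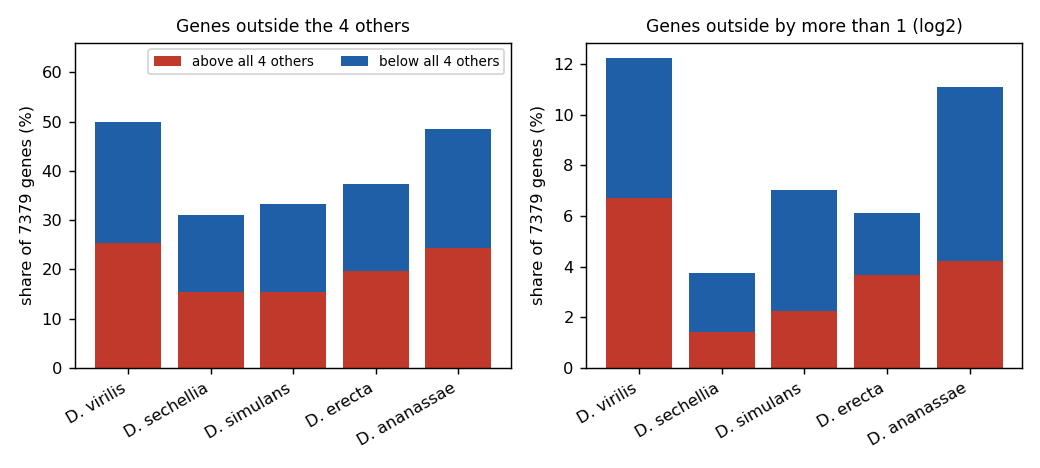
Share of the 7379 genes (vertical axis, percent) whose mean in a species lay above (red) or below (blue) the means of the other 4 species, for any distance (left) and for a distance over 1 on the log2 scale (right). D. virilis reached 49.9% and 12.2%, and D. ananassae 48.4% and 11.1%.

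The genes that were far higher in D. virilis were of varied kinds. The 9 described here, from the 10 with the largest distance to the nearest species, were ndl, CG10514, CG8945, Gyc32E, CG16762, Tsp42Er, srw, CG4409 and CG7634. Only genes called on the contrast, with both D. virilis libraries beyond all 8 others, were open to this choice. The gene ndl encodes nudel, a serine protease known from dorsoventral patterning of the D. melanogaster egg. It had 5246 and 5339.8 normalized counts in the 2 D. virilis libraries, and 0 to 14.0 (median 2.26) in the 8 other libraries. CG10514 had 32376 and 26447 in D. virilis, and 0 to 78.8 (median 18.7) in the others. For CG8945 the D. virilis libraries had 8536 and 7146, and the others 2.83 to 41.4 (median 11.7). All 3 genes were close to the detection limit in some libraries of the other species.

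Gyc32E, a receptor guanylyl cyclase that makes cyclic GMP, had 1183 and 1307 normalized counts in D. virilis, and 2.01 to 16.3 (median 5.81) in the other species (log2 difference on the log2(count + 1) scale 7.39 ± 0.19 (SE), adjusted p = 2.48e-06 in limma). Tsp42Er, a tetraspanin of the membrane, had 4182 and 4818 in D. virilis, against 2.83 to 96.6 (median 5.75) in the others. The secreted protein shrew (srw), of the twisted gastrulation family, had 342 and 357, against 0 to 6.90 (median 2.49). CG16762, CG4409 and CG7634 had D. virilis means of 1503, 174 and 222, against at most 24.8, 3.45 and 4.60 in any of the other 4 species. The D. melanogaster mean of CG4409 was 38.7. The adjusted p of these 9 genes in limma ran from 2.48e-06 to 0.00125, and passing this test was a condition of their choice. The fitted differences depend on the pseudocount where the other species had few reads.

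The genes that were far lower in D. virilis included a detoxification enzyme and a transcription factor of the hypoxia response. Those described here, chosen in the same way, were Cyp6d5, CG30259, CG4968, CG44008, CG11453, CG1737, sima, CG4757, CG6067 and a row shared by Ugt36Ba and Ugt37c1. Cyp6d5, a cytochrome P450, had 3.23 and 7.29 normalized counts in the D. virilis libraries, and 1599.7 to 7641 (median 3998) in the other 8. CG30259 had 14.5 and 12.1 in D. virilis, against 2595 to 6553 (median 3289). The gene sima encodes the homolog of the hypoxia-inducible factor HIF-1 alpha. Its values were 48.4 and 41.3 in D. virilis, and 1212 to 7558 (median 3885) in the other species (log2 difference -6.42 ± 0.47 (SE), adjusted p = 4.86e-05 in limma). Even the lowest of the other libraries, from D. simulans, was far above both D. virilis libraries. The tables do not show which gene model was counted as the ortholog in each species, so a near absence of reads, as for Cyp6d5 and sima, is given as a listed value only, and the part of the gene models in it was not tested.

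CG1737 was even across libraries, with 14.5 and 14.6 in D. virilis, and 1073 to 2162 (median 1376) in the others. CG4968 had 1.61 and 2.43, against 267 to 698 (median 632), and CG11453 had 3.23 and 0, against 140.4 to 1054 (median 599). CG44008 rested on 2 reads of 1 D. virilis library, against 164 reads in both libraries of D. erecta, the nearest species. Its ratio to D. erecta was 0.0103, with a 95% counting interval of 0.00123 to 0.0377 that covers counting error only. That interval takes every read as independent. Reads were sequenced in pairs and most recovered counts of the genes described were even. The 2 reads may thus be the ends of a single fragment, and the interval would then be too narrow. CG4757 had a D. virilis mean of 23.0, against 1543 to 11909 in the other species, and CG6067 had 10.9, against 718 to 2703. The shared row of Ugt36Ba and Ugt37c1, which belong to a family of conjugating enzymes, had 12.5, against 623 to 939.6, and does not tell which of these genes was counted. Adjusted p ran from 1.43e-07 to 4.86e-05 over these 10 genes in limma, for which passing was again a condition of choice.

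**Figure D3:**
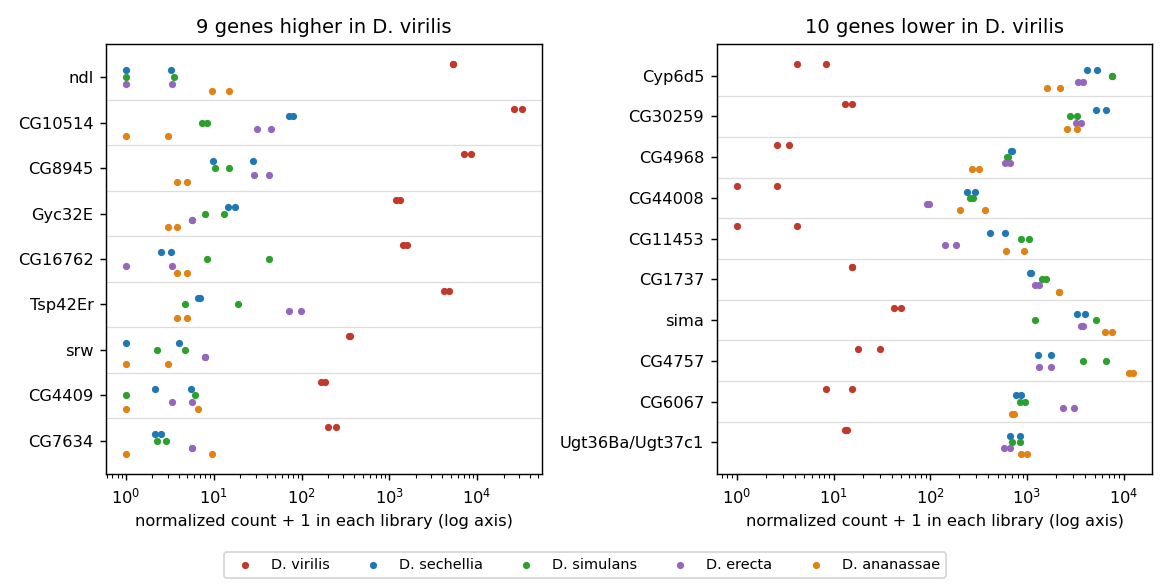
Normalized count + 1 in each of the 10 libraries (horizontal log axis) for 9 of the genes farthest above (left) and the 10 farthest below (right) the nearest other species, among tested genes that met the conditions for naming. Points are single libraries coloured by species. A condition of the choice was that both D. virilis libraries lay beyond the other 8.

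A difference as large as any of these was listed for RpL10, a protein of the large ribosomal subunit that all cells need. The D. virilis libraries had 1.61 and 2.43 normalized counts, 2 reads in each, whereas the means of the other species were 13012 to 19611. Reads came in pairs, so the 2 reads of a library may be the ends of a single fragment. The D. sechellia value was not resolved and the gene was not tested. The log2 difference of RpL10 was -14.54, -14.25 and -11.94 at the larval, early pupal and mid pupal stages, so the low listing held in every D. virilis column. The gene model counted as its ortholog is again not shown.

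The receptor genes in the comparison were mostly lower in D. virilis. Before the filter, the adult listing held 26 names of basiconic, 13 of trichoid or intermediate and 12 of coeloconic receptors. Those that did not pass it are left out. Over all genes, 34.6% were lower and 34.9% higher on the contrast, and 13.1% were lower and 13.5% higher than in all 4 species. Bulk RNA does not tell fewer neurons of a class from less RNA in each neuron. Of 16 receptors of basiconic sensilla in the comparison, the gustatory receptors Gr21a and Gr63a included, 11 were lower and 3 higher on the contrast. Against all 4 species 5 were lower and 1 was higher. Of 7 odorant receptors of trichoid and intermediate sensilla, 6 were lower on the contrast and 3 were lower than in all 4 species. The list of coeloconic sensilla held 10 receptors, 9 of them ionotropic and the other Or35a. On the contrast 7, Or35a and the co-receptor Ir76b included, were lower and 1 was higher, and 2 were lower than in all 4 species. The median log2 differences of the 3 lists were -0.76, -1.11 and -0.58, beside 0.002 over all genes. Of the co-receptors, 1 passed a test. Ir76b had 3127 and 2952 in D. virilis, against 3563 to 7110.4 (median 5634) in the others, a difference that passed the test on the contrast but not against each species. Ir25a did not pass either test, with 3669 and 4033, against 2247 to 6789 (median 5886). Orco was untested, with a log2 difference of -0.72 between the means.

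The exception among the basiconic receptors was Or98a. It had 2152 and 2150.0 in D. virilis, against 56.1 to 512 (median 235) in the other 8 libraries (log2 difference 3.35 ± 0.12 (SE), adjusted p = 5.59e-06 in limma). The 5 lower ones were Or82a, Gr63a, Or9a, Or42b and Or92a. Or82a had 257 and 233 in D. virilis, against 722 to 1971 (median 1368). Gr63a, which forms the carbon dioxide receptor with Gr21a, had 582 and 641, against 1341 to 3281 (median 2246). Its partner Gr21a had 1005 and 1149, against 979.8 to 3103 (median 1409), and the libraries overlapped. Or9a had 507 and 617, against 1364 to 2479 (median 2139). The receptors Or42b and Or92a belong to neighbouring neurons of the ab1 sensillum in D. melanogaster, which respond to food esters and to diacetyl. Or42b had 966 and 1108, against 1659 to 4901 (median 2701), and Or92a had 1876 and 1924, against 2949 to 4896 (median 3777).

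Or13a, a receptor of intermediate sensilla, showed the largest difference of the trichoid and intermediate list, with 24.2 and 38.9 in D. virilis, against 237 to 1091 (median 547) in the others (log2 difference -4.06 ± 0.19 (SE), adjusted p = 1.05e-05 in limma). Or83c, a farnesol receptor in D. melanogaster, had 218 and 258, against 584 to 724 (median 615), and Or23a had 152 and 192, against 319.7 to 689.6 (median 438). In contrast, Or47b and Or67d, receptors of fly-derived pheromones in D. melanogaster, stayed within the range of the other species. Or47b had 1415 and 1482, against 896 to 1844 (median 1386), and Or67d had 576 and 753, against 551 to 1512 (median 1063). Or67d passed the test on the contrast (log2 difference -0.60 ± 0.14 (SE), adjusted p = 0.00869 in limma) and Or47b did not. Without 1 D. virilis library, Or67d missed it (limma adjusted p = 0.0825).

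Among ionotropic receptors, Ir75d and Ir64a were lower than in all 4 species. Ir75d had 855 and 945 in D. virilis, against 1267 to 3737 (median 2756), and Ir64a, which senses acids, had 1407 and 1335, against 1792 to 3626 (median 3240.2). A row shared by Ir75b and Ir75c pointed the other way, with 2393 and 1936, against 451 to 1998 (median 923), a difference that passed the test on the contrast only. Of 7 temperature and humidity receptors, 5 were lower and 2 higher on the contrast, beside 34.6% and 34.9% of all genes. The heat-gated channel pyx had 0 and 4.86 in D. virilis, against 33.4 to 101 (median 78.8), and was lower than in all 4 species. TrpA1, the other heat-gated channel, had 48.4 and 70.5, against 1.86 to 25.3 (median 17.5), and was higher on the contrast (log2 difference 2.11 ± 0.45 (SE), adjusted p = 0.00574 in limma), a call that was lost without 1 D. virilis library (limma adjusted p = 0.0556). The other higher member of the list, wtrw, had a D. virilis mean of 2584, inside the range of 305 to 3237 of the other means. Among the ionotropic receptors for humidity, Ir40a had 469 and 439.7, against 382 to 2190.4 (median 993), and Ir93a had 519 and 496, against 317 to 1976 (median 1059). Each fell on the contrast, but the D. virilis values lay near those of D. sechellia and D. erecta and well under those of D. simulans and D. ananassae.

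Odorant-binding proteins in the comparison showed a lower median than any receptor list. Before the filter, the adult listing held 52 names of this list. Of 23 members, 14 were D. virilis-specific and lower and 4 were D. virilis-specific and higher, beside 24.6% and 25.3% of all genes, and the median log2 difference was -1.38. Of the 14 tested, 6 were lower than in all 4 species and 1 was higher, beside 13.1% and 13.5% of all genes. Obp19c had 3.23 and 4.86 in D. virilis, against 69.0 to 584 (median 301) in the others, and Obp47b had 1.61 and 2.43, against 25.6 to 66.7 (median 40.1). The higher one was Obp56g, with 1133 and 1708, against 1.11 to 389 (median 17.6). Its other values split by species, at 316 in D. ananassae and at most 18.4 in the other means. The abundant members were untested. Obp83a had a mean of 303591 in D. virilis, against 84526 to 274800.0, and lush, which carries a pheromone in D. melanogaster, had 11913, against 14481 to 20964.

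Support-cell and odorant-degrading enzymes held 12 members, of which 5 were D. virilis-specific and lower, beside 24.6% of all genes. On the contrast 3 of 6 were lower and 1 was higher, beside 34.6% and 34.9% of all genes. Jhe, juvenile hormone esterase, had 3.23 and 12.1, against 17.2 to 573 (median 216), and was the only 1 of the 6 tested that was lower than in all 4 species. The antennal protein a5 had a mean of 26984, against 30375 to 142029, and was untested. Snmp1, a membrane protein of pheromone-sensing neurons, had 31539.9, inside the range of 21495 to 49656 of the other means.

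Detoxification enzymes held members with large differences in both directions. Of 43 cytochrome P450 genes, 39 were tested, and 12 were higher and 13 lower on the contrast, no more than the 34.9% and 34.6% of all genes. Against all 4 species 8 were higher and 6 lower, beside 13.5% and 13.1% of all genes. Cyp18a1, which inactivates ecdysteroids, had 347 and 275 in D. virilis, against 4.45 to 70.7 (median 9.87) in the others. Cyp4d20 was untested, with a D. virilis mean of 37643, against 198 to 4980.1. A row shared by Cyp4e1, Cyp4e2 and Cyp4e3 had 52946, against 7.25 to 7865. Of 16 glutathione S-transferases, 3 were higher and 1 was lower than in all 4 species among 11 tested. GstZ2 had 732 and 1037, against 92.0 to 345 (median 184), and GstT4, the lower one, had 59.7 and 92.3, against 394 to 1741 (median 1029). Of 8 UDP-glucuronosyltransferases, 2 were higher and 1 was lower among 6 tested. Ugt86Dd had 14837 and 14057 in D. virilis, against 32.5 to 9065 (median 345), and the nearest values were those of D. erecta.

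Genes for protein synthesis and turnover were on the high side by small steps. Of 28 proteasome subunits, all tested, 19 were higher and 1 was lower on the contrast, beside 34.9% and 34.6% of all genes. Higher than in all 4 species were 10, beside 13.5% of all genes. The median log2 difference of the 28 was 0.27. The values of Prosalpha6 were 3601 and 3996 in D. virilis, against 1544 to 2272 (median 2163), and those of Prosbeta7 were 3117 and 3336, against 1638 to 2205 (median 1858). Of 63 mitochondrial ribosomal proteins, 29 were higher and 17 lower on the contrast, beside 34.9% and 34.6% of all genes. Against all 4 species 11 were higher and 3 lower, beside 13.5% and 13.1% of all genes. The median log2 difference of the 63 was 0.19. The largest difference was that of mRpS25, with 1408 and 1654 in D. virilis, against 267 to 409 (median 340.2) (log2 difference 2.17 ± 0.11 (SE), adjusted p = 1.39e-05 in limma). The 70 cytoplasmic ribosomal proteins had a median of 0.33. Of these, 38 were D. virilis-specific and higher and 5 were D. virilis-specific and lower, beside 25.3% and 24.6% of all genes. Only 27 of the 70 had resolved counts in all 5 species. Of the 27, 9 were higher and 3 lower than in all 4 species, beside 13.5% and 13.1% of all genes. RpL27 had 11027 and 14091, against 1205 to 8622 (median 5788). Scaled to the row shared by Act5C and Act42A, which lowers every log2 difference by 2.68, Prosalpha6, Prosbeta7, mRpS25 and RpL27 changed sign. Of the respiratory chain, 9 of 70 names in the table were in the comparison and 7 were tested. Lower than in all 4 species were RFeSP of complex III, SdhB of complex II and cytochrome c (Cyt-c-p), with log2 differences of -0.94, -0.46 and -0.82. SdhA, the partner of SdhB, was untested and above all 4 species, with a mean of 20241, against 11240.3 to 17152.

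**Figure D4:**
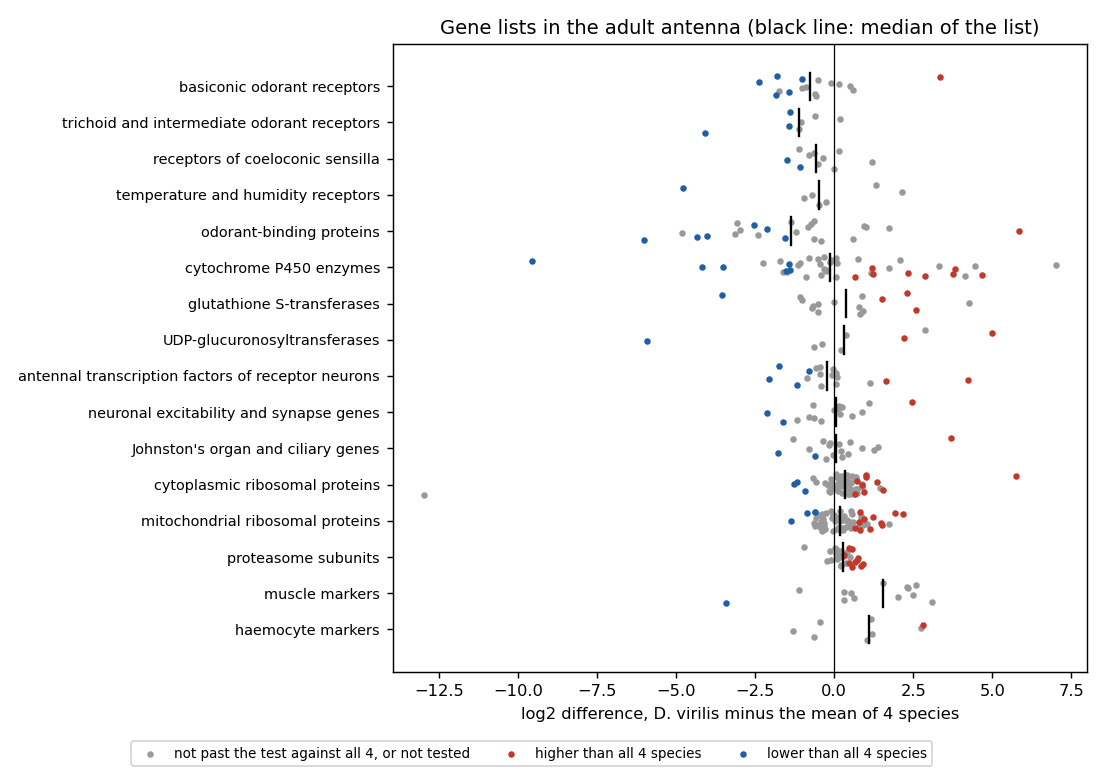
Log2 difference of D. virilis from the mean of 4 species (horizontal axis) for the members of 16 gene lists, a point per gene and a black line at the median of each list. Red and blue points were higher or lower than all 4 species in the test. Medians ran from -1.38 for odorant-binding proteins to 1.54 for muscle markers.

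Of 18 transcription factors of the antenna, 2 were higher and 4 lower than in all 4 species, beside 13.5% and 13.1% of all genes. The paralogs bab1 and bab2, BTB domain proteins known from the patterning of appendages in D. melanogaster, moved in opposite directions. The values of bab1 were 2189 and 2723 in D. virilis, against 72.8 to 234 (median 123) in the others (log2 difference 4.22 ± 0.14 (SE), adjusted p = 4.92e-06 in limma), whereas those of bab2 were 609.8 and 661, against 1143 to 4333 (median 3188) (log2 difference -2.05 ± 0.08 (SE), adjusted p = 5.85e-06 in limma). The same opposition was seen at the earlier stages, with log2 differences of 6.65, 6.95 and 4.15 for bab1 and -2.14, -2.42 and -1.72 for bab2 at the larval, early pupal and mid pupal stages. The zinc finger gene zf30C was lower, with 321 and 326, against 853 to 1235 (median 1159.6), and apterous (ap), a LIM homeodomain factor, was higher, with 118 and 126, against 29.3 to 53.7 (median 41.1).

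Neuronal genes had a median of 0.06 over 16 members, of which 1 was higher and 2 were lower than in all 4 species, beside 13.5% and 13.1% of all genes. The higher one was unc-13, which primes synaptic vesicles, with 9486 and 6861, against 314 to 3521 (median 1912). The lower ones were the potassium channel Shal, with 245 and 141, against 447 to 2158 (median 711), and acetylcholinesterase (Ace), with 1807 and 1166, against 2319.7 to 9880.5 (median 4404). Johnston's organ and ciliary genes had a median of 0.05 over 18 members. There unc, a protein of the ciliary base, was higher than in all 4 species, with 184 and 175, against 0 to 37.1 (median 18.2), and the dynein heavy chain btv was lower, with 1979.5 and 1113, against 4278 to 6969 (median 5011). The clock gene Clk was lower, with 290.4 and 343, against 589.9 to 1075 (median 753), and its target Pdp1 was higher, with 6179 and 4801, against 1982 to 3703 (median 2984). The time of day of dissection is not given in the sources used here, and its part in these values was not tested.

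Markers of other cell types varied between all species. Of 13 muscle markers, 7 were higher and 2 lower on the contrast, beside 34.9% and 34.6% of all genes. Their median was 1.54, but 0 were D. virilis-specific and higher, beside 25.3% of all genes. Mhc, the muscle myosin heavy chain, had 2007 and 1722 in D. virilis, against 2.83 to 5445 (median 633), and D. erecta was higher than D. virilis. A row shared by the muscle actins Act57B, Act87E and Act88F was the exception, with 99.2 and 109, against 218 to 2158 (median 1418). Haemocyte markers held 3 D. virilis-specific higher genes of 8, beside 25.3% of all genes. Among them was eater, a phagocytic receptor, with 423 and 442, against 23.0 to 292 (median 48.7). The peroxidasin Pxn had 345 and 248, against 153 to 3633 (median 588). It was lower on the contrast, a call that was lost without 1 D. virilis library. The summed haemocyte level was 2900 and 2360 in D. virilis and 791 to 4320 in the others. Eye markers had a median of -1.71 over 8 genes, which was -0.3 without the D. sechellia library that was high in them. The fat body and yolk sum was 613 and 491 in D. virilis and 161 to 7440 in the others. In D. virilis ninaA of the eye list and the rows of He and of Sr-CI alone of the haemocyte list were at 0, and no muscle or fat body marker was. The part of these cells in other results was not tested. Of 8 immune effector genes, 4 were lower and 1 was higher on the contrast, and 2 were lower than in all 4 species, beside 34.6%, 34.9% and 13.1% of all genes. They were PGRP-LB and PGRP-SD, which bind bacterial peptidoglycan, with 92.0 and 68.0, against 232 to 4105 (median 307), and 22.6 and 36.4, against 58.9 to 447 (median 128).

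The 3 earlier stages were sequenced from other libraries, so they give a second look at the D. virilis-specific genes. They share the gene models and ortholog assignments of the adult data, and the part of these in the shares below was not tested. Pupae were collected after 8 and 40 hours, and D. virilis pupae after 10 and 48 hours. Among the D. virilis-specific higher genes of the adult, D. virilis was again above all 4 species for 817 of 1777 genes (46.0%) in wandering larvae, 850 of 1804 (47.1%) in early pupae and 1032 of 1831 (56.4%) in mid pupae. Over all genes of the comparison the shares were 26.5%, 25.9% and 29.3%. Among the lower genes, D. virilis was again below all 4 for 45.2%, 46.2% and 51.0%, against 25.8%, 24.5% and 27.5% of all genes. The opposite side was taken by 10.5% to 12.3%. Of 1752 higher genes with values at every stage, 519 (29.6%) stayed on their side at all 3 earlier stages and 492 (28.1%) at none, and of 1671 lower genes 413 (24.7%) did at all 3 and 478 (28.6%) at none. Among genes with an adult distance over 1 on the log2 scale, 143 of 420 higher (34.0%) and 135 of 329 lower genes (41.0%) stayed on their side at all 3 stages, and 26.9% and 13.1% at none. When the distance had to exceed 1 at the earlier stage as well, 23.4% to 46.0% did so, against 5.2% to 9.8% of all genes.

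The largest adult differences were of both kinds. Gyc32E kept its difference, with log2 values of 7.02, 8.11 and 7.79 in larvae, early pupae and mid pupae beside 7.63 in adults. The same held for sima, with -6.25, -6.41 and -6.86 beside -6.53. Other genes differed far more in adults than earlier. CG30259 had -1.17, -0.94 and 0.01 at the earlier stages and -8.10 in adults, and CG4968 had 0.42, 0.29 and 0.85 and -8.04. CG1737 was between, with 0.03, -0.35 and -7.87 and -6.64. CG8945 changed its direction, with -0.79, -0.37 and -2.86 at the earlier stages and 9.29 in adults. Early values are missing for genes listed at 0 in a species, as with Tsp42Er at all 3 stages.

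**Figure D5:**
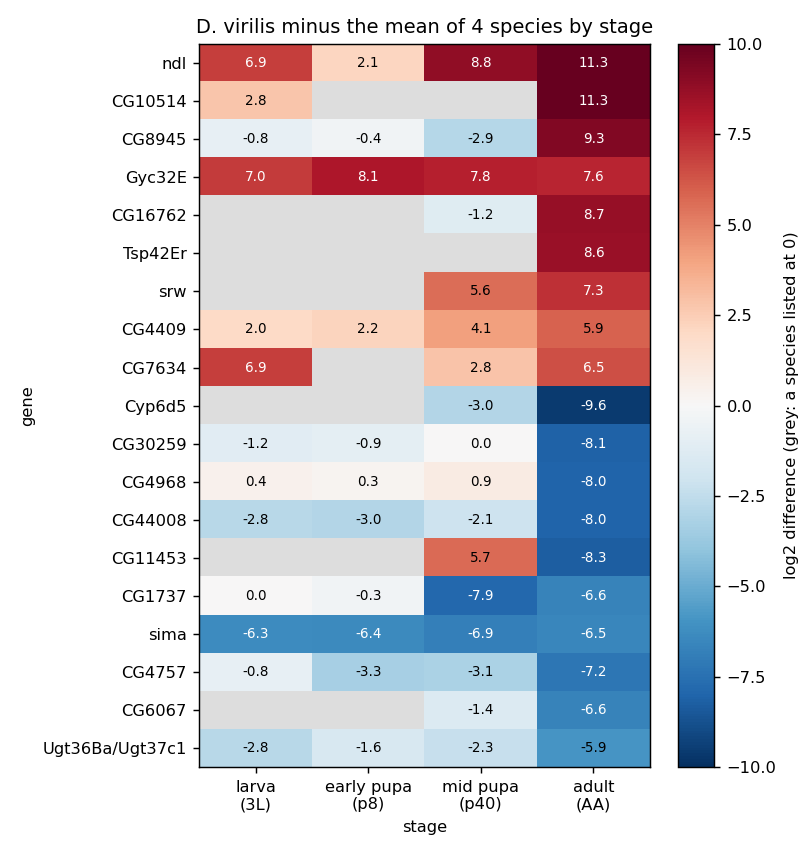
Log2 difference of D. virilis from the mean of 4 species (colour and printed value) for 19 of the genes with the largest adult distances (rows), at the larval, early pupal, mid pupal and adult stages (columns). Grey cells mark a species listed at 0. Gyc32E stayed above 7 and sima below -6 at every stage, whereas CG4968 was low only in adults.

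D. melanogaster, which took no part in the choice of genes, gave a further reference. D. virilis also lay beyond the D. melanogaster mean on the same side for 1658 of 1846 D. virilis-specific higher genes (89.8%) and for 1557 of 1803 lower genes (86.4%), whereas it was above D. melanogaster for 50.5% of all genes. These counts share the D. virilis libraries with the rule, and D. melanogaster belongs to the same group as the 4 other species. The choice of genes therefore favoured a high share, and the share over all genes is no fair reference for it. Not every large difference extended to D. melanogaster. The row of Ugt36Ba and Ugt37c1 had 12.5 in D. virilis, close to 17.8 in the D. melanogaster mean. CG10514 had 29411 in D. virilis and 668 in D. melanogaster, which was above the other 4 species as well.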

How the data were processed

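RNA-seq libraries of adult antennae came from 5 species with 2 libraries each. The authors' methods give pools of about 300 adult antennae from males and females, whereas the labels give 300 individuals. The authors mapped paired reads with BWA 0.7.8 to the transcriptome of each species, counted them per transcript and assigned gene names by FlyBase orthologs. Where a gene had several orthologs, they kept only the transcript with the highest expression. Libraries of all species at a stage were normalized jointly by the authors in DESeq2. The deposited signal is the authors' mean normalized count per species and stage, not divided by transcript length, with 0 columns of single libraries. Columns of D. melanogaster were used as the authors' means only. Gene models differ between species, and their part in the differences was not tested.

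Both library counts were solved from each mean at 10 digits. On simulated data 12903 of 12903 resolved D. virilis values were right. Single libraries then entered limma 3.58.1 (R 4.3.3) on log2(count + 1) with a species term and the contrast of D. virilis minus the mean of 4. With 2-fold changes simulated in 6735 genes for this contrast, 49 of 50 raised and 50 of 50 lowered genes were called, and 9 of 6535 unchanged ones. Rows with identical values were joined, and 125 genes share a row with other names. Differences without a standard error are log2 ratios of means without a pseudocount. Because the highest counts were not resolved, the full depth of the libraries is unknown.

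The members and gene lists were chosen with earlier results of these data known. Named genes were the 10 per direction farthest from the nearest species, among those called, with both D. virilis libraries beyond all 8 others and a mean of at least 50 in D. virilis or in each other species. To them were added up to 4 per list by size of difference and all receptors and tissue markers. A few genes that this rule names are not reported here. Alternatives were other pseudocounts, limits and scalings, an intensity trend in limma, leaving out a library or species, and, added after seeing the data, eye markers without 1 library. The analysis used Python 3.11.15 with pandas 2.3.3, numpy 2.4.6 and matplotlib 3.10.9.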

Additional observations from a re-analysis of the deposited data

Results flagged for a closer look

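In these genes D. virilis lay outside all 4 species on opposite sides in adults and at an earlier stage. The difference between stages was not tested, and values are log2 differences of D. virilis from the mean of 4 species. CG8945 had -0.79 in wandering larvae and -2.86 in mid pupae, beside 9.29 in adults. Its D. virilis mean was 5.75 in larvae, near the detection limit, and 1030 in mid pupae. CG4968 had 0.42 in larvae, 0.29 in early pupae and 0.85 in mid pupae, beside -8.04 in adults. CG11453 had 5.68 in mid pupae and -8.26 in adults. The co-receptor Orco had 1.34 in early pupae and 2.35 in mid pupae, beside -0.72 in adults, and the channel TrpA1 had -1.79 in larvae and -3.63 in early pupae, beside 2.15 in adults. The D. virilis means of TrpA1 in larvae and early pupae were 3.83 and 0.85, at the detection limit. Among enzymes, Jhe had 2.28 in early pupae and -4.32 in adults. Cyp18a1 had -1.45 in early pupae and -3.57 in mid pupae, beside 4.69 in adults, and Cyp4d20 had -1.25 and -2.16 at these stages, beside 4.44 in adults. Ugt86Dd had -2.40 in mid pupae, where its D. virilis mean of 2.40 was near the detection limit, and 4.99 in adults. Cyt-c-p had 0.41 in larvae and 0.70 in early pupae, beside -0.82 in adults, and the clock output gene Pdp1 had -2.01 in mid pupae and 0.94 in adults.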

How the results depend on the processing

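The counts of genes higher and lower on the contrast (2506 and 2483), than in all 4 species (967 and 937) and D. virilis-specific by the rule (1867 and 1814) moved by less than 1.5 times under every alternative run, apart from a distance over 1 on the log2 scale, which left 494 and 409 of the last pair and moved the shares on the same side at earlier stages. These became 23.4% (higher) and 28.7% (lower) in larvae, 26.7% and 29.0% in early pupae and 30.1% for the higher genes of mid pupae. Without 1 of the 10 libraries, the contrast gave 2056 to 2508 higher and 2091 to 2457 lower genes, the test against each species 709 to 928 and 770 to 877, and the rule 1777 to 1862 and 1766 to 1848. Of 70 genes described that passed on the contrast, 67 also passed without any 1 library. Or67d (adjusted p = 0.0825 in limma), TrpA1 (0.0556) and Pxn (0.08) missed it without 1 D. virilis library. Of the 12 genes that lost the call against all 4 species without a library, RpL27 had the smallest and PGRP-SD the largest limma adjusted p (0.0537 and 0.215). For Ace and RpL27 this was 1 D. sechellia library, and the others lost it without a D. virilis library or several. No paired analysis was possible because the recovered libraries carry no replicate number. Rescaling moved all genes by -0.031. The row shared by Act5C and Act42A was itself 2.68 higher on the log2 scale in D. virilis, and levels relative to it shift every gene by that amount. Its D. simulans libraries had 17280 and 1600.4, and with either of these alone (added after seeing the data) the shift was 2.46 or 3.32. So scaled, the signs of 14 of 81 genes turned, with log2 differences of -1.47 (Ir75b), -0.52 (TrpA1), -1.74 (Obp83a), -0.39 (GstZ2), -1.14 (RpL27), -0.50 (mRpS25), -1.76 (Prosalpha6), -1.91 (Prosbeta7), -2.10 (SdhA), -1.05 (ap), -0.22 (unc-13) and -1.73 (Pdp1), and of -2.51 (Or47b) and -2.63 (Snmp1), neither of which was called. The genes with unresolved counts rest on means alone, and their differences have no error.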
